A study of Mus musculus with 12 samples.

Results

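The genes described here are the FoxO transcription factor genes Foxo1, Foxo3 and Foxo4, with Cited2, Txnip and Klf2, taken by symbol from the deposited count files. All 6 were found among 35976 gene symbols, and all 6 passed the filter on low counts in every fit. They were followed in mouse haematopoietic stem and progenitor cells, sorted as cells without lineage markers that carry c-Kit and Sca-1 and called HSCs by the labels. The groups were old fresh knockout (KO), old fresh wild type (WT), young stimulated KO, young stimulated WT, young fresh KO and young fresh WT, with 2 libraries in each of these 6 groups and 12 libraries in all. KO animals carried a knockout of Cd38, an NAD-consuming ectoenzyme gene, and the labels do not name the allele or the strain. Old animals were aged 24 months and young ones 2 months, fresh cells were processed straight after isolation, and stimulated cells were kept outside the body with cytokines for 24 hours. The cytokines are not named in the labels, and no stimulated cells from old animals were part of the design. Separate animals are not stated for the libraries of a group. In young fresh WT the replicates came from different animals of different sex, with Xist at 0 and 729 CPM and the Y-linked gene Ddx3y at 88.4 and 0 CPM. The p-values speak for the spread among these libraries, which in the other groups may be technical. The study asked how CD38 acts on HSCs at rest, during cytokine activation and in age.

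FoxO proteins are transcription factors that are kept out of the nucleus when the kinase AKT phosphorylates them and 14-3-3 proteins bind them, so growth factor signalling through PI3K lowers their activity without a change in their mRNA. In mouse HSCs FoxO proteins are known for holding cells in quiescence and for protection from reactive oxygen, a role shown most clearly for Foxo3. Cited2 encodes a protein that binds the coactivators CBP and p300, competes there with the hypoxia factor HIF-1, is a known FoxO target and is needed to maintain HSCs in mice. Txnip encodes an arrestin-domain protein that inhibits thioredoxin and limits glucose uptake and is induced both by FoxO factors and by the glucose sensor MondoA. Klf2 encodes a zinc-finger factor of quiescent lymphocytes and of endothelium under flow, which FoxO1 can induce in T cells.

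On the mouse build GRCm38.p6, Foxo1 (RefSeq gene 56458) lies on chromosome 3 from 52268337 to 52350109 on the plus strand. Foxo3 (gene 56484) lies on chromosome 10 from 42181845 to 42276695 on the minus strand, and Foxo4 (gene 54601) on the X chromosome from 101254261 to 101260873 on the plus strand. Cited2 (gene 17684) lies on chromosome 10 from 17723228 to 17725674, Txnip (gene 56338) on chromosome 3 from 96557957 to 96561857, and Klf2 (gene 16598) on chromosome 8 from 72319062 to 72321654, all on the plus strand. The annotation has an antisense gene, Gm15441, over Txnip, which had 2 counts in young stimulated KO replicate 3, 7 in young stimulated WT replicate 2 and 0 in the other libraries, against 536 to 2030 counts for Txnip. It also has Gm20402 and Gm38034 over Foxo1, which were not analysed here. The strand setting of the counting is not given in the sources used here, so reads of overlapping genes cannot be told apart with certainty.

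Promoter sequence shows which known binding letters lie next to the start of these genes, and 5 of the 6 genes matched the RefSeq promoter table of GRCm38.p6. Stretches that end at the base before the start site are printed 5′ to 3′ on the gene's strand, 120 bases for Foxo1 (chr3:52268217-52268336) and Foxo3 (chr10:42276696-42276815, minus strand), 180 for Cited2 (chr10:17723048-17723227) and Txnip (chr3:96557777-96557956), and 250 for Klf2 (chr8:72318812-72319061). Capitals mark a FoxO letter run and its variant, the E-box, the E-box-like letters CACGAG, and the MEF2 letters.
Foxo1: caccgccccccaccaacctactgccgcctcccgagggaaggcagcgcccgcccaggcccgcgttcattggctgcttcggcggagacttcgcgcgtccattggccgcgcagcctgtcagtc
Foxo3: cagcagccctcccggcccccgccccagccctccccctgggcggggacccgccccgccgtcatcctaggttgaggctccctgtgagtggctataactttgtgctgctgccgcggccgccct
Cited2: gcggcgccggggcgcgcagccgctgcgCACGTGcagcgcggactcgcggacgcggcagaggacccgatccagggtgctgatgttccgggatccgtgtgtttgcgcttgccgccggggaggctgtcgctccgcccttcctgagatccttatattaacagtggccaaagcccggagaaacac
Txnip: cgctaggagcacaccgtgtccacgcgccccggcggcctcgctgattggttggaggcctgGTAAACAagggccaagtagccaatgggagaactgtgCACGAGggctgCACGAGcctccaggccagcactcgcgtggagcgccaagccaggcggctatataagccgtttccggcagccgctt
Klf2: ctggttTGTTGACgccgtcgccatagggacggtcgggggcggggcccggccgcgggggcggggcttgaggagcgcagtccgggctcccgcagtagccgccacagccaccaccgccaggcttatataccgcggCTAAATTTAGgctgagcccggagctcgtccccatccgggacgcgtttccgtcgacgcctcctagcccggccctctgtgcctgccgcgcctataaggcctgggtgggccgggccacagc

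The 250 bases before each start were searched on both strands for these letters. Txnip had the FoxO letters GTAAACA from -121 to -115, which 3.17% of 32851 promoters of that length hold, and the letters CACGAG from -85 to -80 and from -74 to -69, which 5.37% hold. Klf2 had the variant GTCAACA on the minus strand from -244 to -238 (2.07% of promoters) and the MEF2 letters CTA, any 4 bases, TAG from -118 to -109 (3.2%). Cited2 had the E-box CACGTG from -153 to -148 (6.02%). None of these marked matches overlapped another, and Foxo1 and Foxo3 had no match to these 5 letter runs in this window. A match is a description of the letters and shows no binding.

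Total counts were 1600155 to 1963635 in the young fresh libraries, 2692245 to 3249721 in the stimulated ones and 3796591 to 5164720 in the old ones, so age and stimulation went with depth. Genes with any count numbered 9116 to 9993 in young fresh libraries, 9548 to 10231 in old ones and 13163 to 13450 in stimulated ones. The stimulated libraries thus held more genes than the deeper old ones. The part of this in the changes, and in genes at 0 in fresh cells, was not tested. Levels are in CPM (counts scaled to a common library total) on library sizes scaled by TMM. Fold changes are log2 values from edgeR's quasi-likelihood test, with an SE computed back from its F statistic. Their 95% intervals use that SE and the normal quantile, so an interval can miss 0 where the unadjusted p is above 0.05. A gene passed when the Benjamini-Hochberg adjusted p over all genes of a fit was under 0.05. The correlation of log2 levels across genes (not independent units) was 0.954 and 0.959 between replicates of the stimulated groups and 0.704 to 0.746 between replicates of the fresh groups. The genes of both sort markers were present, with Kit at 191 to 423 CPM and Ly6a, which encodes Sca-1, at 39.3 to 177 CPM. Cd38 had counts in KO libraries too. It was at 13.2 and 19.9 CPM in old fresh KO against 74.4 and 41.4 CPM in old fresh WT, at 3.59 and 2.32 CPM in young stimulated KO against 0.998 and 8.58 CPM in young stimulated WT, and at 62.8 and 31.9 CPM in young fresh KO against 17.6 and 24.6 CPM in young fresh WT. Both KO libraries were thus above both WT ones in young fresh cells and below them in old fresh cells. A 3′ tag can lie outside the deleted part, which the labels do not give, so Cd38 counts cannot check the genotype here, and the groups are named as labelled. Xist was at 0 in young fresh WT replicate 1, which also carried the Y-linked gene Ddx3y at 88.4 CPM, and at 198 CPM or more in the other 11 libraries. Ddx3y was also at 5.80 and 1.99 CPM in young stimulated KO and at 0.333 and 0.660 CPM in young stimulated WT.

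**Figure D1:**
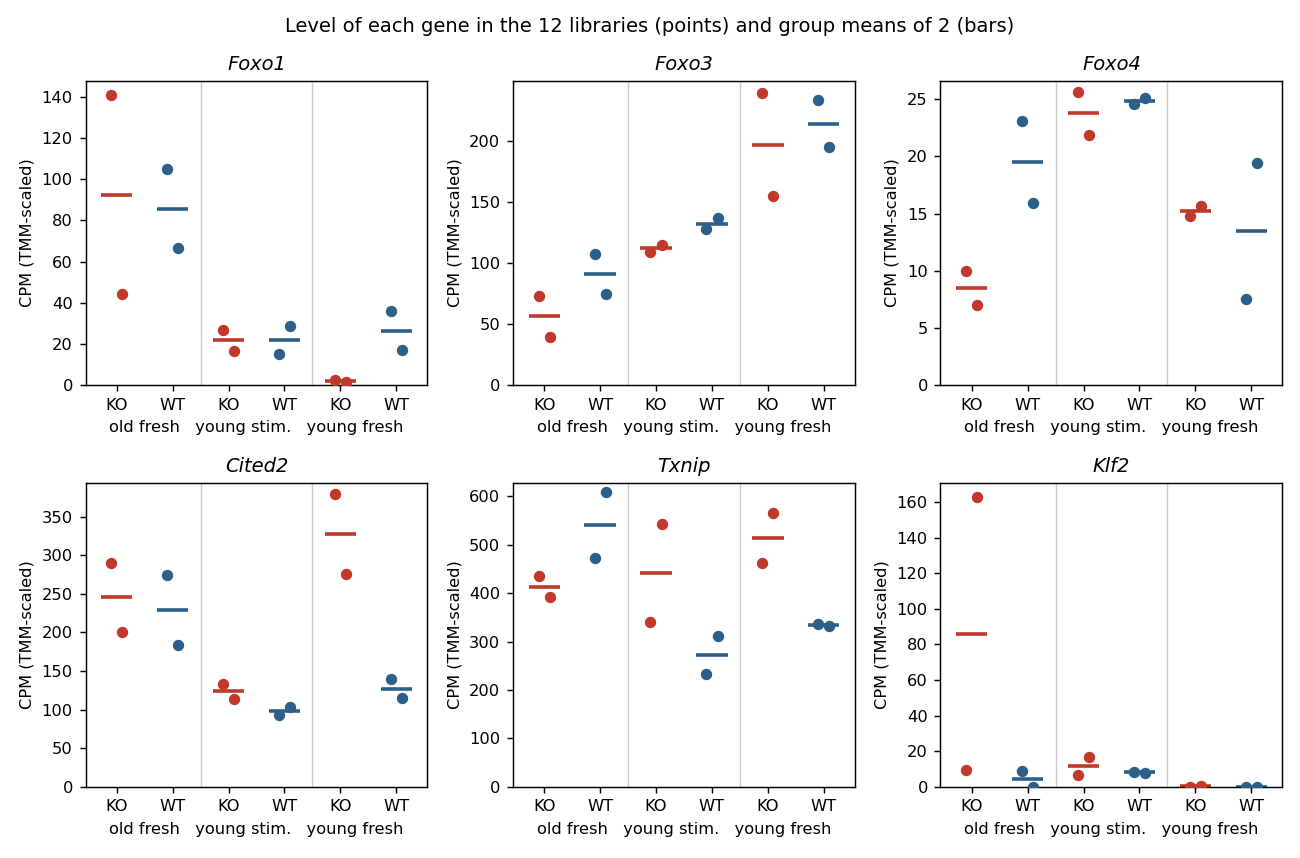
Level of each of the 6 genes in CPM on TMM-scaled library sizes (y axis, linear from 0) in the 2 libraries of each group (points) with the group mean (bar), KO in red and WT in blue. Foxo1 sits between 44.3 and 141 CPM in the 4 old libraries and at 35.7 CPM or less elsewhere, and Klf2 in old fresh KO replicate 4 stands apart at 163 CPM.

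With age the FoxO genes shifted against each other: Foxo1 rose and Foxo3 fell in old fresh cells, while Foxo4, Cited2 and Txnip did not pass the test. Foxo1, which in mice also acts in lymphoid development, had 141 and 44.3 CPM in old fresh KO and 105 and 66.3 CPM in old fresh WT, against 2.55 and 1.57 CPM in young fresh KO and 35.7 and 17.1 CPM in young fresh WT. All 4 old libraries lay above all 4 young ones, and the 2 lowest were the young KO libraries, whose levels rest on 5 and 3 counts. The log2 change was 3.57 ± 0.76 (adjusted p = 0.0118, edgeR). Within genotypes the age change was 5.46 over KO libraries (adjusted p = 0.0283) and 1.67 over WT libraries (adjusted p = 0.724). The test of that difference, the interaction of genotype and age, gave 3.79 ± 1.44 (adjusted p = 0.902).

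Foxo3, the FoxO gene best known from HSC quiescence, went the other way. It had 73.2 and 39.3 CPM in old fresh KO and 108 and 74.5 CPM in old fresh WT, against 238.8 and 154 CPM in young fresh KO and 233 and 195 CPM in young fresh WT. The old and young libraries did not overlap, and the lowest of the 12 libraries was old fresh KO replicate 4. The log2 change was -1.53 ± 0.36 (adjusted p = 0.0250, edgeR), a level 0.347 times that of young cells. It was -1.80 over KO libraries (adjusted p = 0.146) and -1.25 over WT libraries (adjusted p = 0.484), below 0 in both genotypes with the threshold met in neither alone.

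These 2 of 6 genes stood beside 2.72% of the 10680 genes tested with age, 1.76% higher and 0.964% lower. The groups did not overlap for the same 2 of 6 genes, against 8.43% of all genes. Foxo1 missed the threshold without old fresh KO replicate 3 (3.04, adjusted p = 0.0999) and Foxo3 without old fresh KO replicate 4 (-1.33, adjusted p = 0.0752). Without young fresh WT replicate 1, the library with Xist at 0, Foxo1 was at 3.88 and Foxo3 at -1.46.

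Other cell markers moved with age as well. Of the 8 granulocyte and monocyte markers 6 were tested and 4 fell (S100a8, S100a9, Camp and Ngp), and their summed level was 419 to 3110 CPM in old libraries against 4983 to 9561 CPM in young fresh ones. Klrb1c, an NK cell receptor gene, rose to 15.7 to 105 CPM in old libraries against 0 to 0.571 CPM in young fresh ones. It was the single called gene of the 2 tested from the T and NK list of 7. The other, Nkg7, went down without being called. It had 2.78 and 48.8 CPM in old fresh KO and 3.72 and 0 CPM in old fresh WT, against 13.7 to 34.7 CPM in young fresh libraries. Cd3e, Cd4 and Cd8a were at 0 in every library. The T and NK list summed to 19.4 to 123 CPM in old libraries against 14.3 to 34.7 CPM in young fresh ones. Of the 10 stem and progenitor markers Hlf and Cd34 fell, while 6 were above 0, with a list median of 0.18 against 0.05 for all genes. The list summed to 1316 to 2084 CPM in old libraries against 2023 to 2176 CPM in young fresh ones. B cell markers summed to 0.266 to 59.8 CPM in old libraries against 0 to 3.14 CPM in young fresh ones, with Ms4a1 at 0 in all 8 fresh libraries. Erythroid markers summed to 29.2 to 101 CPM in old libraries against 77.5 to 175 CPM in young fresh ones, mast cell and basophil markers to 0 to 24.0 CPM against 0 to 14.7 CPM, and endothelial and stromal markers to 26.2 to 119.8 CPM against 52.0 to 132 CPM, with no gene called. The part of these markers, and of depth, in the FoxO changes was not tested. In sorted populations fewer cells of a type and less RNA per cell cannot be told apart.

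Foxo4, Cited2 and Txnip gave intervals that span 0 with age. Foxo4, an X-linked gene, had 9.96 and 7.03 CPM in old fresh KO and 23.1 and 15.9 CPM in old fresh WT, against 14.8 and 15.7 CPM in young fresh KO and 7.53 and 19.4 CPM in young fresh WT. Its age change was -0.16 with a wide 95% interval of -2.95 to 2.63 (adjusted p = 1.00, edgeR), on 46 to 140 counts per group. Cited2 had 290.4 and 201 CPM in old fresh KO and 275 and 184 CPM in old fresh WT, against 379.7 and 276 CPM in young fresh KO and 139.9 and 115 CPM in young fresh WT. The old libraries of both genotypes lay between the young KO and young WT libraries in mean, and the change was 0.21 (interval -0.35 to 0.76, adjusted p = 0.846). Txnip had 436 and 391 CPM in old fresh KO and 472 and 609 CPM in old fresh WT, against 463 and 566 CPM in young fresh KO and 336 and 332 CPM in young fresh WT. Its change was 0.18 (interval -0.24 to 0.61, adjusted p = 0.809).

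Klf2 was all but absent from young fresh cells. It had 0 and 1 counts in young fresh KO and 0 and 0 counts in young fresh WT. Old fresh KO libraries had 40 and 787 counts (9.27 and 163 CPM) and old fresh WT libraries 34 and 0 counts (9.03 and 0 CPM), so 1 old library was without it and another held most of the counts. In WT the summed level was at least 5.34-fold higher in old cells when 3 counts over the group stand for the young 0. That rise came from old fresh WT replicate 1 alone, and replicate 2 showed none. In KO the ratio of summed levels, old to young, was 350 (95% interval 62.6 to 13832), mostly from old fresh KO replicate 4. These figures cover counting error only. The pooled age change had an adjusted p of 0.0647 with edgeR, and 0.723 without old fresh KO replicate 4. That library also had the highest B cell marker sum of the 12, 59.8 CPM, all of it from Cd79b with Cd79a and Ms4a1 at 0, and its part in the Klf2 level was not tested.

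**Figure D2:**
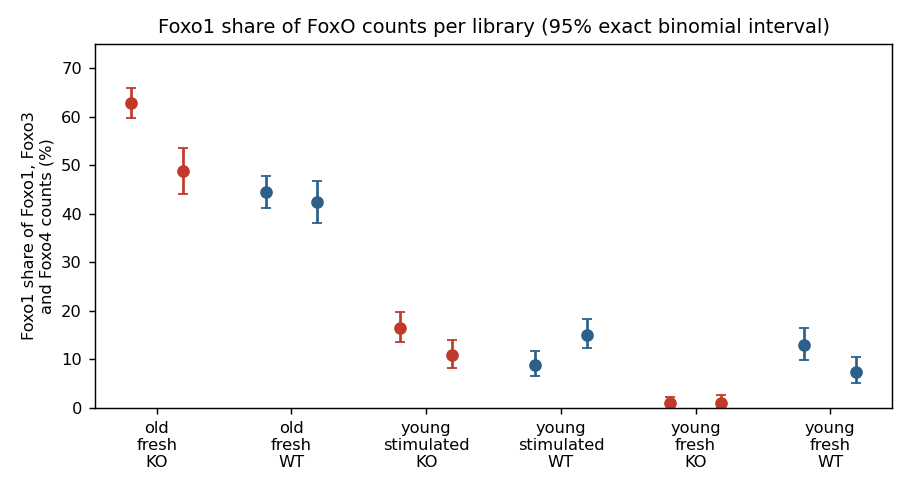
Share of Foxo1 among the counts of Foxo1, Foxo3 and Foxo4 (y axis, percent) in each of the 12 libraries, with exact binomial 95% intervals for counting error, KO in red and WT in blue. The old libraries sit between 42.3% and 62.8%, above all young ones, and the young fresh KO libraries are lowest, at 0.996% and 0.915%.

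The balance among the FoxO genes was read within each library. Foxo1 took 62.8% and 48.9% of FoxO counts in old fresh KO and 44.5% and 42.3% in old fresh WT, against 0.996% and 0.915% in young fresh KO and 12.9% and 7.41% in young fresh WT. Exact Clopper-Pearson 95% intervals were 59.7% to 65.9% for the highest of these libraries and 0.189% to 2.65% for the lowest, for counting error only. Foxo3 took 32.7% and 43.4% in old fresh KO and 45.7% and 47.5% in old fresh WT, against 93.2% and 89.9% in young fresh KO and 84.4% and 84.2% in young fresh WT. Shares of different genes also carry how well each 3′ end is captured, so a share is read here across libraries and not as a ratio of molecules. The summed FoxO level was 157 ± 94.2 CPM in old fresh KO and 196 ± 55.8 CPM in old fresh WT, against 214 ± 59.7 CPM in young fresh KO and 254 ± 32.0 CPM in young fresh WT (SD, n = 2 each), so the sums of old and young libraries overlapped. Foxo6, another FoxO gene, had counts in 1 of the 12 libraries, young stimulated WT replicate 1, at 0.665 CPM.

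After 24 hours with cytokines none of the 6 genes passed edgeR's test, though 4 had an unadjusted p under 0.05 and DESeq2 called 2, Cited2 and Klf2. Over all genes 2.81% of 11548 passed, 1.31% higher and 1.51% lower, and the median log2 change of all genes was 0.27. Of these 11548 genes 2046 had an unadjusted p under 0.05, and DESeq2 called 786. Cited2 had 134 and 114 CPM in young stimulated KO and 92.5 and 103 CPM in young stimulated WT, against 379.7 and 276 CPM in young fresh KO and 139.9 and 115 CPM in young fresh WT. The stimulated KO libraries lay below both fresh KO libraries, the stimulated WT libraries below both fresh WT ones, and the groups overlapped only across genotypes. The change was -0.89 ± 0.24 (adjusted p = 0.0586, edgeR), and it passed with DESeq2 (-0.96, adjusted p = 0.00852), RLE scaling (-0.96, adjusted p = 0.0416), no filter (-0.88, adjusted p = 0.0460), voom with group weights (-0.88, adjusted p = 0.0369) and without young fresh KO replicate 4 (-0.99, adjusted p = 0.0451). Relative to the median gene it was lower still.

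Foxo3 had 109 and 115 CPM in young stimulated KO and 128 and 136 CPM in young stimulated WT, against 238.8 and 154 CPM in young fresh KO and 233 and 195 CPM in young fresh WT. Every stimulated library was below every fresh one, with a change of -0.75 ± 0.28 (adjusted p = 0.186, edgeR). Foxo1 had 26.8 and 16.6 CPM in young stimulated KO and 14.97 and 28.7 CPM in young stimulated WT, overlapping the young fresh WT libraries (35.7 and 17.1 CPM) and above the young fresh KO ones (2.55 and 1.57 CPM). Its pooled change of 1.55 ± 0.62 (adjusted p = 0.213) was 3.37 over KO libraries and -0.27 over WT libraries.

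Foxo4 in stimulated cells was at 25.7 and 21.9 CPM in KO and 24.6 and 25.1 CPM in WT, against 14.8 and 15.7 CPM in young fresh KO and 7.53 and 19.4 CPM in young fresh WT. These libraries did not overlap either, and the change was 0.76 ± 0.87 (adjusted p = 0.704, edgeR). Txnip had 339.7 and 543 CPM in young stimulated KO and 233 and 312 CPM in young stimulated WT, and its change from the fresh levels was -0.26 ± 0.19 (adjusted p = 0.528). Klf2 had 6.35 and 16.6 CPM in young stimulated KO and 8.32 and 7.92 CPM in young stimulated WT, on 23 to 50 counts a library. In WT it was at least 9.05-fold higher after stimulation, with 3 counts over the group for the 0 in fresh cells, and in KO the ratio was 42.5 (95% interval 7.40 to 1702), both for counting error only. Its pooled change had an adjusted p of 0.105 with edgeR, 0.00643 with DESeq2 and 0.00621 with no filter.

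The stimulated and fresh groups did not overlap for Foxo3, Foxo4 and Klf2, 3 of 6 genes against 19.8% of all genes. This comparison and the one with age use the same young fresh libraries. Foxo3 was at -0.75 with stimulation and -1.53 with age, Foxo1 at 1.55 and 3.57, and Cited2 at -0.89 and 0.21. Beside them 4 of the 7 tested granulocyte and monocyte markers fell with stimulation too, to a summed 806 to 1529 CPM in stimulated libraries against 4983 to 9561 CPM in young fresh ones. Mast cell and basophil markers summed to 41.4 to 93.2 CPM in stimulated libraries against 0 to 14.7 CPM in fresh young ones, with none of 5 tested genes called. T and NK markers summed to 113 to 229.9 CPM in stimulated libraries against 14.3 to 34.7 CPM in fresh young ones, mostly Nkg7, with Cd3e at 0 and none of 2 tested genes called. Stem and progenitor markers summed to 1693 to 1976 CPM against 2023 to 2176 CPM, with Hlf lower and Flt3 higher, and B cell markers to 11.3 to 21.1 CPM against 0 to 3.14 CPM, with Cd79a and Ms4a1 at 0. Endothelial and stromal markers summed to 17.8 to 54.3 CPM in stimulated libraries against 52.0 to 132 CPM in young fresh ones, and erythroid markers to 41.4 to 121 CPM against 77.5 to 175 CPM, with no gene called. The part of these lists in the changes was not tested.

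**Figure D3:**
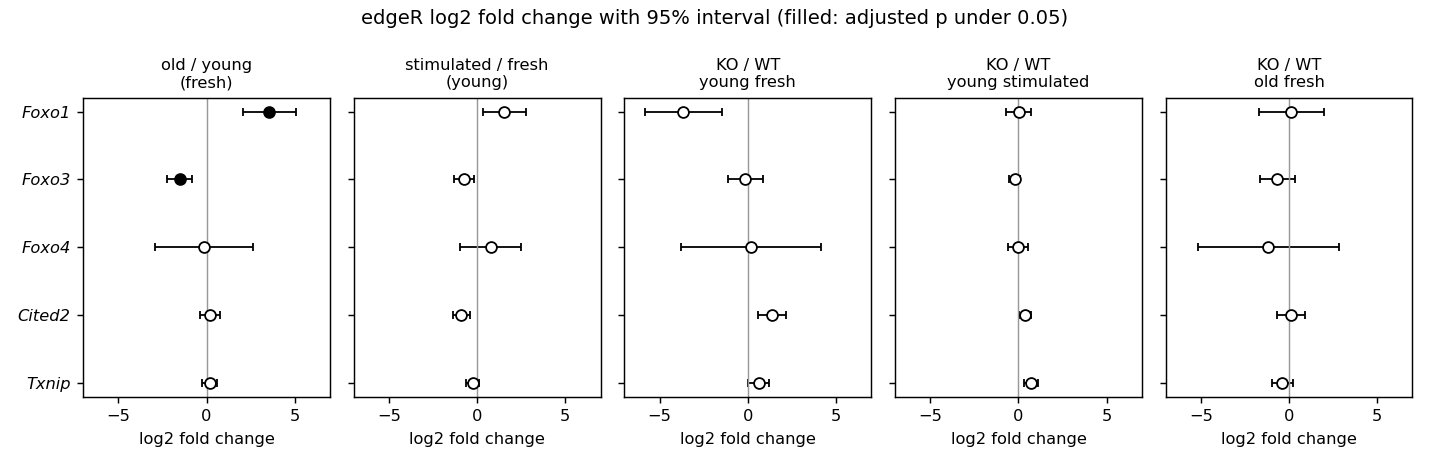
Log2 fold change (x axis) of Foxo1, Foxo3, Foxo4, Cited2 and Txnip in 5 comparisons with the 95% interval as a line. Points are filled where edgeR's adjusted p was under 0.05. The lines use the normal quantile, so a line can miss 0 where the unadjusted p is above 0.05. The filled points are Foxo1 at 3.57 and Foxo3 at -1.53 in old over young fresh cells. Klf2 is left out since its young fresh libraries hold 1 count in all.

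The KO and WT comparison was made in each of the 3 settings. In stimulated cells, where replicates were closest, none of the 6 genes passed edgeR's test. Of them 1 had an unadjusted p under 0.05, and DESeq2 called 0. Over all 10494 genes 1.23% passed with edgeR, 0.762% higher and 0.467% lower. Of these genes 1143 had an unadjusted p under 0.05, and DESeq2 called 129. Txnip had 339.7 and 543 CPM in young stimulated KO against 233 and 312 CPM in young stimulated WT. The KO libraries were both above the WT ones, by 0.72 ± 0.20 (adjusted p = 0.111). It passed with no filter (adjusted p = 0.000114) and without young stimulated WT replicate 2 (0.95, adjusted p = 0.00101), and was at 0.33 without young stimulated KO replicate 4 (adjusted p = 0.841), while DESeq2 gave an adjusted p of 0.777. Cited2 averaged 124 ± 14.1 CPM in the KO libraries and 97.7 ± 7.44 CPM in the WT libraries (SD, n = 2 each), a change of 0.36 ± 0.17 (adjusted p = 0.462). Foxo1, Foxo3 and Foxo4 changed by 0.02 (interval -0.70 to 0.73), -0.22 (interval -0.53 to 0.10) and -0.04 (interval -0.60 to 0.53). Klf2 was at 0.51 (interval -0.53 to 1.55). Groups did not overlap for Foxo3, Cited2 and Txnip, 3 of 6, against 42% of all genes.

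In young fresh cells Foxo1 was lower and Cited2 higher in KO in both libraries, without passing edgeR's adjusted threshold. With edgeR 0% of 10680 genes passed, 519 had an unadjusted p under 0.05, and DESeq2 called 137. Foxo1 was lower in young fresh KO (2.55 and 1.57 CPM) than in young fresh WT (35.7 and 17.1 CPM), at -3.66 ± 1.11 (unadjusted p = 0.00379, adjusted p = 0.794 with edgeR and 0.0167 with DESeq2). Cited2 was higher in young fresh KO (379.7 and 276 CPM) than in young fresh WT (139.9 and 115 CPM), at 1.35 ± 0.41 (unadjusted p = 0.00374, adjusted p = 0.794 with edgeR and 0.0265 with DESeq2). The Foxo1 difference thus rests on 8 counts in KO against 87 in WT, and the Cited2 difference on 1272 against 424. In these libraries Cd38 itself was higher in those labelled KO, as given above. Txnip was at 0.61 ± 0.31 (adjusted p = 0.961), with both KO libraries above both WT ones. Foxo3 and Foxo4 overlapped between genotypes, at -0.13 (interval -1.12 to 0.85) and 0.17 (interval -3.79 to 4.13). Without overlap were Foxo1, Cited2 and Txnip, 3 of 6 genes against 32.1% of all genes.

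In old fresh cells edgeR again passed 0% of 10680 genes, with 428 at an unadjusted p under 0.05 and 105 called by DESeq2. None of the 6 genes had an unadjusted p under 0.05 there, and DESeq2 called 0 of them. Foxo1 averaged 92.5 ± 68.2 CPM in old fresh KO and 85.6 ± 27.3 CPM in old fresh WT (SD, n = 2 each), a difference of 0.12 (interval -1.72 to 1.97). Cited2 averaged 246 ± 63.1 CPM in old fresh KO and 229 ± 64.3 CPM in old fresh WT, a difference of 0.11 (interval -0.67 to 0.90). Foxo3 was at -0.68 (interval -1.67 to 0.31), Foxo4 at -1.18 (interval -5.18 to 2.81) and Txnip at -0.37 (interval -0.97 to 0.23). Both KO libraries lay below both WT ones for these 3 genes and above them for Klf2, 4 of 6 genes without overlap against 33.2% of all genes.

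Whether the genotype difference changed with state was tested by interaction terms, and edgeR passed 0% of 11548 genes with stimulation (577 at an unadjusted p under 0.05, 32 called by DESeq2) and 0% of 10680 with age (587 at an unadjusted p under 0.05, 104 called by DESeq2). The KO over WT difference of Foxo1 was higher by 3.64 ± 1.25 in stimulated than in fresh cells (unadjusted p = 0.0107, adjusted p = 0.885) and by 3.79 ± 1.44 in old than in young cells (unadjusted p = 0.0163, adjusted p = 0.902). That of Cited2 differed by -1.03 ± 0.47 between stimulated and fresh (adjusted p = 0.885) and by -1.24 ± 0.57 between old and young cells (adjusted p = 0.902). Txnip turned direction between ages, with KO above WT in young and below it in old fresh cells, an interaction of -0.98 ± 0.43 (unadjusted p = 0.0355, adjusted p = 0.902). All of these share the young fresh KO and WT libraries.

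The order of the 6 groups by mean level differed from gene to gene. Foxo1 was lowest in young fresh KO, followed without overlap by young stimulated KO, young stimulated WT and young fresh WT, which overlapped one another, and then without overlap by old fresh WT and old fresh KO, which overlapped. Foxo3 climbed through old fresh KO, old fresh WT, young stimulated KO and young stimulated WT without overlap of neighbours, to young fresh KO and young fresh WT, which overlapped. Cited2 was lowest in young stimulated WT, then young stimulated KO and young fresh WT, which overlapped, then old fresh WT, old fresh KO and young fresh KO, each overlapping the next. Txnip was lowest in young stimulated WT and young fresh WT, without overlap, and old fresh KO, young stimulated KO, young fresh KO and old fresh WT followed with overlap of each neighbour. Foxo4 was lowest in old fresh KO and highest in young stimulated WT, and its sole gap between neighbours lay between young fresh KO and old fresh WT. Klf2 was lowest in young fresh WT and highest in old fresh KO, and every neighbour overlapped the next.

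**Figure D4:**
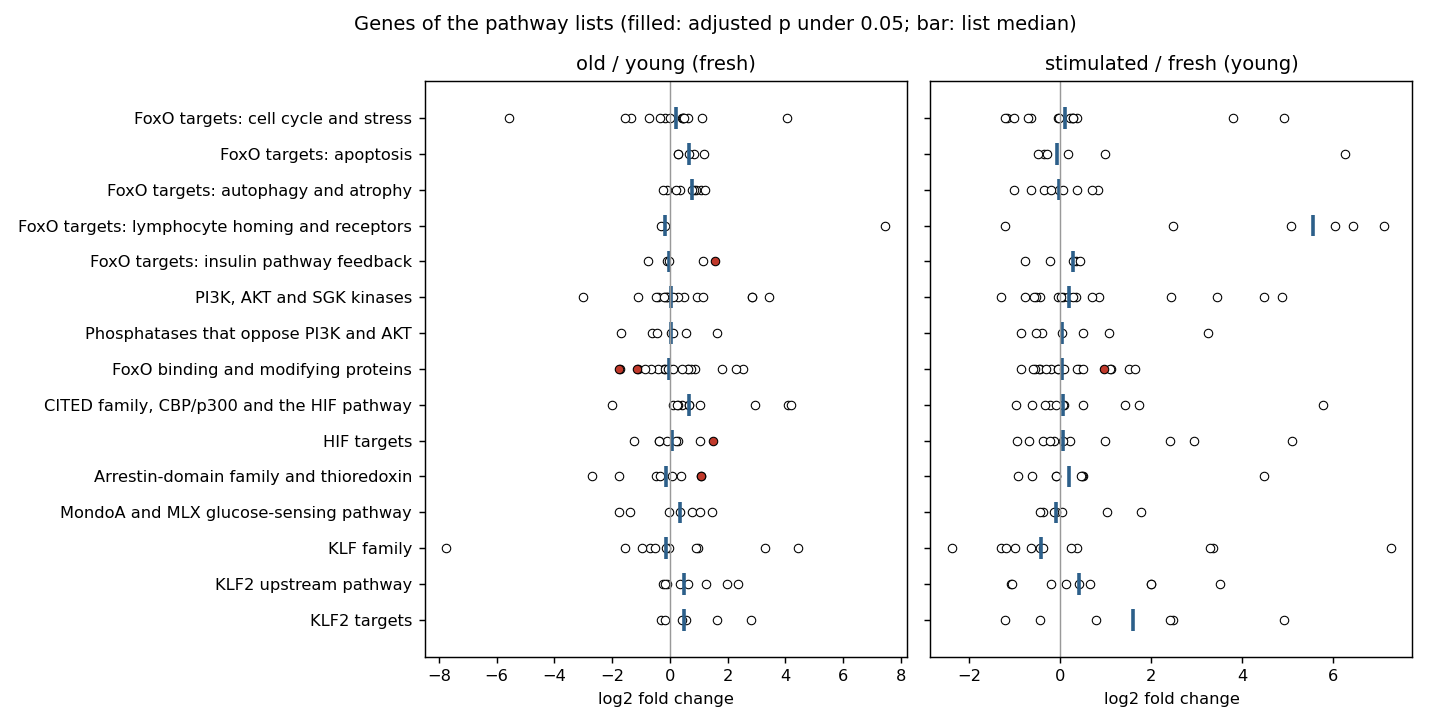
Log2 fold change (x axis) of the tested genes of 15 pathway lists (rows) in old over young fresh cells and in stimulated over fresh young cells, 1 point a gene, filled where edgeR's adjusted p was under 0.05, with the list median as a bar. The filled points in the age panel are Igf1r, Ldha and Prdx1 above 0 and Prmt1 and Ywhae below 0, and in the stimulation panel Ywhah.

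The upstream pathway was read from lists of its genes. With age none of the 17 tested PI3K, AKT and SGK kinase genes and none of the 7 phosphatase genes passed, with medians of 0.04 and 0.03 against 0.05 for all genes. Pik3cb, a PI3K catalytic subunit, averaged 30.8 CPM in old against 3.44 CPM in young fresh cells (adjusted p = 0.504), and Inpp5d, the lipid phosphatase SHIP1, 74.8 against 114 CPM (adjusted p = 0.632). Among 20 genes for FoxO binding and modifying proteins 2 fell with age and none rose. Prmt1, an arginine methyltransferase that blocks AKT's access to FoxO1, had 82.9 to 144 CPM in old against 245 to 464 CPM in young fresh libraries, a change of -1.77 ± 0.30 (adjusted p = 0.00153, edgeR). Ywhae, the 14-3-3 epsilon gene, had 309 to 421 CPM in old against 665 to 904 CPM in young fresh libraries, a change of -1.14 ± 0.20 (adjusted p = 0.00218). The old and young libraries did not overlap for either gene.

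With stimulation 1 of these 20 genes passed, Ywhah, the 14-3-3 eta gene, at 216 to 281 CPM in stimulated against 102 to 172 CPM in young fresh libraries (0.96 ± 0.20, adjusted p = 0.0174, edgeR). No gene of that list was called without young fresh WT replicate 1 or without any one of the 4 stimulated libraries. None of 18 kinase and 7 phosphatase genes passed, with medians of 0.19 and 0.04 against 0.27 for all genes. Ppp2cb, a catalytic subunit of the phosphatase PP2A, averaged 233 CPM in stimulated against 111 CPM in young fresh cells (1.07 ± 0.31, adjusted p = 0.0883). Pik3ca, the PI3K alpha catalytic subunit and a FoxO feedback target, averaged 65.2 against 112 CPM (-0.76 ± 0.30, adjusted p = 0.204). In stimulated KO against stimulated WT no gene of these 3 lists passed. Mtor averaged 33.8 CPM in the KO libraries and 51.4 CPM in the WT ones (adjusted p = 0.336, edgeR).

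FoxO target genes moved in few places. With age none of 14 cell cycle and stress targets, 5 apoptosis targets, 9 autophagy and atrophy targets or 3 lymphocyte homing targets passed, and 1 of 5 insulin feedback targets rose. Igf1r, the IGF-1 receptor gene, had 283 to 399 CPM in old against 38.7 to 159 CPM in young fresh libraries (1.56 ± 0.35, adjusted p = 0.0180, edgeR). The medians were 0.22, 0.66, 0.76, -0.18 and -0.04 in that order, against 0.05 for all genes. The CDK inhibitor gene Cdkn1b averaged 91.1 CPM in old against 241 CPM in young fresh cells (-1.34 ± 0.46, adjusted p = 0.168), and the autophagy gene Map1lc3b 473 against 224 CPM (1.09 ± 0.33, adjusted p = 0.0956).

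With stimulation none of 14, 6, 9, 6 and 5 genes of the same lists passed, with medians of 0.10, -0.06, -0.01, 5.55 and 0.28 against 0.27. The high median of the homing list reflects genes with few or no counts in fresh cells, such as Il7r, at 0 in young fresh libraries and 0 to 39.3 CPM in stimulated ones (adjusted p = 0.233), and Klf2 itself is in that list. Gabarapl1, an autophagy gene, averaged 152 CPM in stimulated against 301 CPM in young fresh cells (-1.01 ± 0.26, adjusted p = 0.0531). S1pr1, the sphingosine phosphate receptor gene that KLF2 induces in T cells, averaged 31.8 against 74.7 CPM (-1.22 ± 0.49, adjusted p = 0.218).

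In stimulated KO against stimulated WT the homing list held calls, all lower in KO, and none of the other FoxO target lists had one. Il7r, the interleukin 7 receptor gene, fell to 0 and 0.552 CPM in KO, against 5.99 and 39.3 CPM in WT (adjusted p = 0.0107, edgeR). Klf2 and Foxo1 themselves overlapped between these groups. No gene of the homing list was called without KO replicate 3, without KO replicate 4 or in 1 fit of all 12 libraries. Among the 10 genes of the stem and progenitor list Flt3 and Cd34 fell and Mecom rose in stimulated KO, while Kit and Ly6a, the genes of the sort markers, were not called. The part of these markers in the changes was not tested. Gabarapl1 averaged 184 CPM in KO libraries against 119.9 CPM in WT libraries (0.64 ± 0.17, adjusted p = 0.0953), and 8 of 9 genes of its autophagy list were above 0 in KO with a median of 0.27 against -0.000193 for all genes.

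The partners of CITED2, TXNIP and KLF2 were read in the same way. With age none of 11 genes of the CITED, CBP/p300 and HIF list passed, 10 of them above 0 with a median of 0.68 against 0.05 for all genes. The smallest p belonged to Egln2 and Epas1, which averaged 13.3 and 12.6 CPM in old against 5.71 and 6.19 CPM in young fresh cells. Both were near the floor, with young fresh libraries down to 0. Of 8 HIF targets 1 rose. Ldha, lactate dehydrogenase A, had 1052 to 1484 CPM in old against 277 to 565 CPM in young fresh libraries (1.51 ± 0.20, adjusted p = 0.000165, edgeR). Of 8 arrestin-domain and thioredoxin genes 1 rose, Prdx1, a peroxiredoxin that thioredoxin recycles, at 402 to 739 CPM in old against 136 to 522 CPM in young fresh libraries (1.09 ± 0.25, adjusted p = 0.0172). Its old and young ranges overlapped, since young fresh WT libraries were at 454 and 522 CPM. None of 7 MondoA pathway, 11 KLF family, 8 KLF2 upstream and 6 KLF2 target genes passed with age. Hk2, hexokinase 2, averaged 125 CPM in old against 45.6 CPM in young fresh cells (1.48 ± 0.49, adjusted p = 0.150).

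With stimulation none of the 11 genes of the CITED list, 11 HIF targets, 8 arrestin-domain and thioredoxin genes, 7 MondoA pathway genes, 12 KLF family genes, 9 KLF2 upstream genes or 6 KLF2 targets passed. Klf10, a TGF-beta induced family member, averaged 61.1 CPM in stimulated against 140.1 CPM in young fresh cells (-1.18 ± 0.34, adjusted p = 0.0857, edgeR), and Egln2, a HIF prolyl hydroxylase gene, 38.2 against 5.71 CPM (adjusted p = 0.0777). Txn1, thioredoxin itself and the partner of TXNIP, averaged 1204 CPM in stimulated against 854 CPM in young fresh cells (0.52 ± 0.19, adjusted p = 0.184). In stimulated KO against stimulated WT no gene of the CITED, HIF target, arrestin-domain and thioredoxin, MondoA, KLF family or KLF2 upstream lists passed. Klf6 averaged 102 CPM in KO libraries against 55.7 CPM in WT libraries (0.89 ± 0.24, adjusted p = 0.1000). In fresh cells no gene of any of the 15 lists passed between genotypes, at either age. Nearest in young cells was Prdx1, at 136 and 224 CPM in KO libraries against 454 and 522 CPM in WT libraries (-1.45 ± 0.35, unadjusted p = 0.000577, adjusted p = 0.503).

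The genes whose log2 levels followed each of the 6 most closely over the 12 libraries were picked by Pearson correlation among 6301 genes that averaged at least 20 CPM. The points share libraries and depth, so these are descriptions. Foxo1 was followed by Ltbp3 (r = 0.937), Pskh1 (0.931) and Tigd2 (0.926), and Foxo3 by Pdpr (0.927) and Zfp445 (0.919). Foxo4 was followed by Arsb (0.923), Ppp6r1 (0.921) and Pdcd2 (0.918), and Cited2 by Mrps31 (0.917), Cmpk2 (0.913) and Rtp4 (0.912). Txnip was followed by Tmem140 (0.877), Rnf125 (0.832) and Acadm (0.826), and Klf2 by Rad21 (0.876), Ezr (0.867) and Rad54l (0.867). Tmem140 and Rad54l also ranked first by Spearman correlation with their gene, at 0.916 and 0.9005.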

How the data were processed

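RNA was purified with RNeasy Plus Micro columns and made into QuantSeq 3′ mRNA-Seq FWD libraries, per the labels' protocols. The deposited files hold raw read counts per gene symbol. The submitters' processing notes name HISAT2 2.2.1, HTSeq 0.9.1, DESeq2 1.34.0 and mm10. Their roles, the annotation and the strand setting are not given in the sources used here. A 3′ tag count compares 1 gene across libraries, not genes with each other.

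Counts were tested in R 4.3.3 with edgeR 4.0.16 (quasi-likelihood, TMM, filterByExpr at 10 counts and 15 in total). The stimulation contrast and its interaction used all 12 libraries (11548 genes), KO against WT in stimulated cells its 4 libraries (10494 genes), and fresh comparisons the 8 fresh libraries (10680 genes). Scripts were tested on simulated data. DESeq2 1.42.0 and voom in limma 3.58.1 were alternatives, with RLE scaling, no filter, a replicate block, 1 fit of 12 libraries and each library left out. Contrasts over 1 genotype were added after seeing the data. The 6 genes and the lists were chosen with earlier results of these data known. Of the lists' genes, named were up to 4 that passed with at least 5 CPM, or else up to 2 with the smallest p. The 22 lists hold 218 entries. Of the listed genes 3 were not found in the count files, and those that failed the filter of a fit were not tested in it. A few genes that met this rule are not reported here.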

Additional observations from a re-analysis of the deposited data

Results flagged for a closer look

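Txnip is listed because its KO and WT libraries lay in opposite order at the 2 ages without overlap. It had 436 and 391 CPM in old fresh KO against 472 and 609 CPM in old fresh WT, and 463 and 566 CPM in young fresh KO against 336 and 332 CPM in young fresh WT. The difference of the differences was -0.98 ± 0.43, with an adjusted p of 0.902 by edgeR.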

How the results depend on the processing

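Foxo1 and Foxo3 kept their direction with age under each alternative run, from 1.67 to 5.46 and from -1.80 to -1.25. Counts of genes past the threshold moved more. With no filter they were 521 for stimulation, 340, 10 and 18 for KO against WT in stimulated, young fresh and old fresh cells, 450 for age, and 10 and 14 for the interactions with stimulation and age. With DESeq2 they were 786 for stimulation, 137 and 105 for KO against WT in young and old fresh cells, 917 for age, and 32 and 104 for the interactions. Voom gave 712 for stimulation. With all 12 libraries in 1 fit they were 0, 3 and 5 for KO against WT in stimulated, young fresh and old fresh cells, 577 for age and 4 for the interaction with age. Over KO libraries alone they were 75 for stimulation and 93 for age, and over WT libraries alone 92 and 86. The cause was not tested.

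Same-numbered libraries of different groups showed no shared deviation over genes (correlations of -0.0132 to 0.0118). With fresh replicates as far apart as given above, this check cannot exclude that the numbers pair them. The sex-linked genes do show that young fresh WT replicate 1 shared no animal with its same-numbered libraries. It had Xist at 0 and Ddx3y at 88.4 CPM. In young stimulated WT replicate 1 these genes were at 610 and 0.333 CPM, and in old fresh WT replicate 1 at 274 and 0 CPM. A replicate block, fitted over 12 libraries for the stimulated comparison, gave 468 for stimulation, 7, 8 and 16 for KO against WT in stimulated, young fresh and old fresh cells, 438 for age and 7 for the interaction with age. Under it Cited2 (-0.88, adjusted p = 0.0439) and Klf2 (adjusted p = 0.0208) passed for stimulation, and Foxo1 turned to -0.091 and -0.057 for KO against WT in stimulated and old cells.

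Leaving out 1 library at a time gave 160 to 423 for stimulation, 24 to 296, 10 to 65 and 7 to 41 for KO against WT in stimulated, young fresh and old fresh cells, 287 to 551 for age, and 0 to 7 and 4 to 57 for the interactions. The stimulation count moved past 1.5-fold without any of the 4 stimulated libraries (160 to 203). The age count did so without young fresh KO replicate 3 (493) or 4 (551) or old fresh WT replicate 2 (442), and the stimulated KO count without WT replicate 1 (296) or KO replicate 3 (48) or 4 (24). The Klf2 change with age ranged from 4.07 to 8.93 over all 8 such fits.

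Directions that turned belonged to values that did not pass. Beside the 2 under the block, and outside leave-one-out, these were Foxo1 in stimulated KO against WT in 1 fit of 12 libraries (-0.011), Foxo1 with stimulation in WT (-0.27), Cited2 (-0.41) and Txnip (-0.31) with age in KO, and Foxo4 with age in WT (0.51). With 1 library left out, KO against WT ranged over 0 for Foxo1 (-0.37 to 0.56), Foxo4 (-0.15 to 0.062) and Klf2 (-0.34 to 1.05) in stimulated cells, Foxo3 (-0.48 to 0.14) and Foxo4 (-0.36 to 0.99) in young fresh cells, and Foxo1 (-0.95 to 0.72) and Cited2 (-0.19 to 0.42) in old fresh cells. So did Foxo4 with age (-0.42 to 0.25), the interaction with stimulation for Foxo3 (-0.38 to 0.25), Foxo4 (-1.06 to 0.28), Klf2 (-3.31 to 0.49) and Txnip (-0.30 to 0.38), and that with age for Klf2 (-1.68 to 8.14).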
